A study of Mus musculus with 6 samples.

Results

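The nuclear genes for the subunits of the mitochondrial oxidative phosphorylation complexes, with several complex I assembly factors, were compared between Noto-GFP-positive cells and the remaining cells of the posterior mouse embryo. Members were taken by symbol: Nduf, Uqcr and Atp5 genes, Sdha to Sdhd, and Cox genes of the numbers 4 to 8, from probe sets with 1 gene symbol. They comprised 179 of the 45101 probe sets on the array and 90 of 18193 named genes. Of these, 85 genes with 165 probe sets passed the filter on low intensity, among 12628 genes and 27821 probe sets that passed in all. By complex, 41 of 42 named genes passed for complex I, 4 of 4 for complex II, 8 of 8 for complex III, 15 of 19 for complex IV and 17 of 17 for complex V. Subunits encoded by the mitochondrial genome were not analysed here.

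Both groups came from the same embryos, which were heterozygous for Noto-GFP, of mixed sex and of a mixed 129S3;ICR background, at embryonic day 8.5 with a median of 6 somites. Noto is a homeobox gene of the node and of the notochord that forms from it. Tissue behind the boundary of somites I and II of 23, 39 and 52 embryos made up the 3 pools, and sorting after treatment with 1% trypsin gave about 2600, 4300 and 6600 GFP-positive cells. From each pool 1 array was made of GFP-positive and 1 of GFP-negative cells. The GFP-negative group was every other cell of the same tissue, so it was a mixture of cell types. Because whole populations were measured, fewer cells of a type and less RNA per cell cannot be told apart.

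Oxidative phosphorylation passes electrons from NADH (complex I) and succinate (complex II) through complex III to oxygen at complex IV. Complexes I, III and IV pump protons across the inner mitochondrial membrane, and complex V, the ATP synthase, uses their return flow to make ATP. The post-implantation embryo relies heavily on glycolysis, and its mitochondria mature as organs form.

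The 9 measured genes of a node and notochord list, among them Shh, Foxa2 and Nodal, all passed as higher in GFP-positive cells (limma, adjusted p under the threshold of 0.05 used throughout), and their summed intensity ran from 11656 to 14154 there and from 1454 to 2096 in GFP-negative cells. The summed intensity of markers of other types also differed between the groups. Some values were under the array's own 40th percentile, such as Dlx5 at 1.20, 5.75 and 1.18 in GFP-positive cells. A sum above 0 therefore does not show that a cell type was present. Summed intensity of 8 lateral mesoderm markers ran from 444 to 720 in GFP-positive and from 2380 to 5740 in GFP-negative cells, and 6 of the 8 passed as lower. For 5 endothelial markers the sums were 157 to 333 and 1315 to 1867, and 4 passed as lower. For 6 erythroid markers they were 331 to 5750 and 12122 to 28425, and 1, Hemgn, passed as lower. In the other direction, 7 paraxial mesoderm markers summed to 3274 to 3588 in GFP-positive and 998 to 1189 in GFP-negative cells, with 4 passing as higher, and 6 gut endoderm markers to 1358 to 2911 and 762 to 1016, with 3 passing as higher and 1 as lower. For 5 neural plate markers the sums were 972 to 1485 and 2347 to 2641, with 1 passing as lower, and for 4 surface ectoderm markers 37.1 to 50.5 and 183 to 259, with all 4 passing as lower. The 2 arrays of pool 1 stood apart in the controls for RNA length: the intensity of the 3′ over the 5′ probe set of Gapdh was 14.0 and 15.4 there against 1.60 to 2.22 on the other 4 arrays, and for beta-actin it was 14.9 and 22.7 against 1.90 to 2.75. Pool 1 also differed in some marker sums. Erythroid markers summed to 331 there against 5750 and 3144 in GFP-positive cells, and to 12122 against 18503 and 28425 in GFP-negative cells. Lateral mesoderm markers in GFP-negative cells summed to 2380 against 5664 and 5740, while paraxial mesoderm sums differed little between pools. The part of cell mixture or of RNA length in the values that follow was not tested. Results are therefore given for all 3 pools and also without pool 1.

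Most of the respiratory genes had a higher mean in the GFP-positive cells, but none passed the test on cell group alone. That test leaves out the pairing of arrays within pools, and calls "over the 3 pools" below are its calls. Some members did pass with the pool as a block, as given below. The log2 difference (GFP-positive minus GFP-negative, on the log2(intensity + 32) scale used throughout) was positive for 59 of the 85 genes and negative for 26, with a median of 0.19. Over all genes the median was 0.01, with 6458 positive and 6170 negative. In the limma fit on cell group alone 0 of 85 members passed, whereas 4.66% of all genes did, 2.95% as higher and 1.71% as lower. At an unadjusted p under 0.05, 9 members were higher and 3 lower, which is 10.6% and 3.53% of them, against 12.7% and 10% of all genes. The smallest adjusted p-values were 0.072 for Atp5md, 0.083 for Ndufa6 and 0.129 for Cox7a2. The standard error of the log2 difference had a median of 0.22 over the members and the same over all genes. In the fit without pool 1, given below, that median was 0.131 over the members and 0.165 over all genes. Shares called in that fit are therefore not compared at equal precision.

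**Figure D1:**
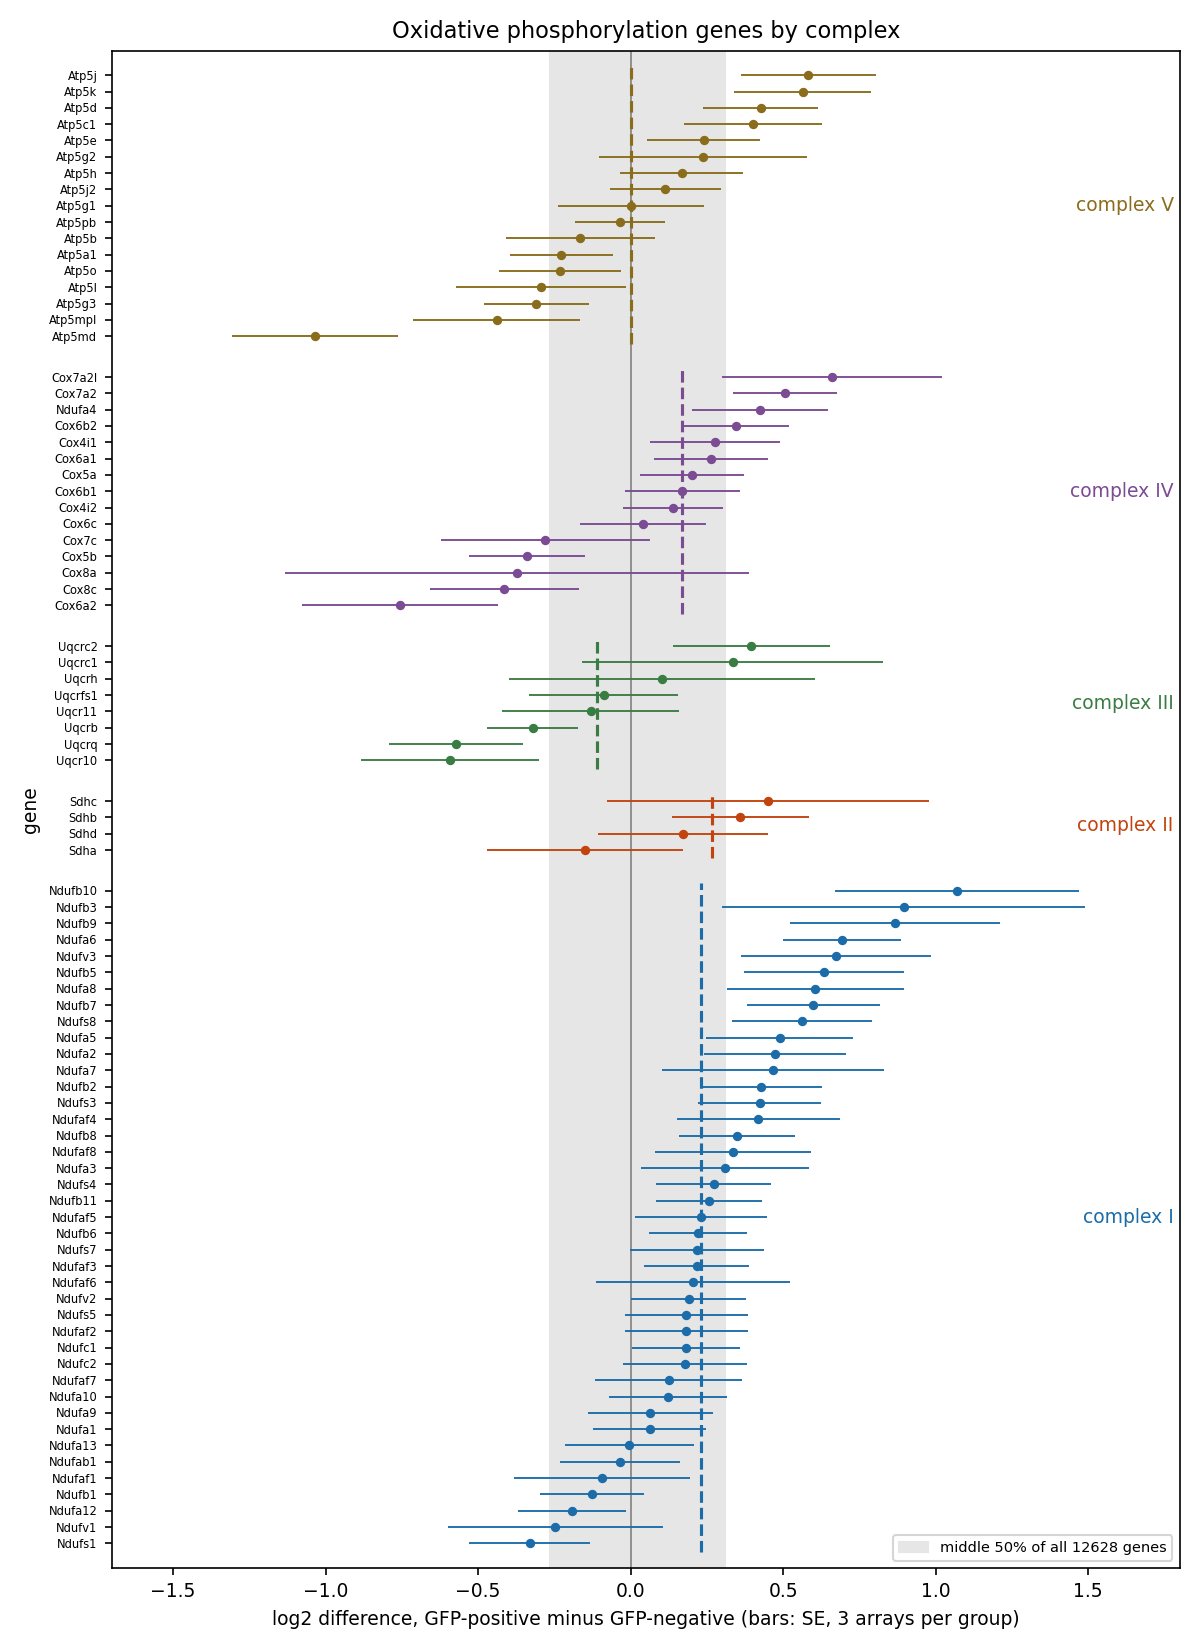
Log2 difference of each of the 85 genes (GFP-positive minus GFP-negative, x axis), sorted within its complex (y axis), with bars for the SE over 3 arrays per group, dashed lines for each complex's median and a grey band for the middle 50% of all 12628 genes. Complex I has 34 of 41 points above 0, whereas complex V has 9 of 17, and the lowest point is Atp5md at -1.04.

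The 3 pools did not give the same picture. The median member difference was 0.01 in pool 1, 0.39 in pool 2 and 0.20 in pool 3, while the median over all genes was 0.03, 0.02 and -0.00. The median size of the difference, whatever its sign, was 0.152 in pool 1 against 0.448 and 0.381 in the others, where all genes had 0.257, 0.355 and 0.402. Across the 85 genes, the differences in pools 2 and 3 had a Pearson r of 0.86, but those in pool 1 had an r of 0.02 with pool 2 and -0.03 with pool 3. Across all 12628 genes these values were 0.84, 0.50 and 0.49. These correlations describe genes measured on shared arrays, which are not independent replicates. A total of 32 members were higher in all 3 pools and 12 were lower, against 28.4% and 24.9% of all genes, and 54 and 20 had those signs in both pools 2 and 3, against 40.9% and 39.3% of all genes. The lowest GFP-positive array lay above the highest GFP-negative array for 14 members, and the groups were separated in the other direction for 5, against 15.6% and 12.2% of all genes.

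**Figure D2:**
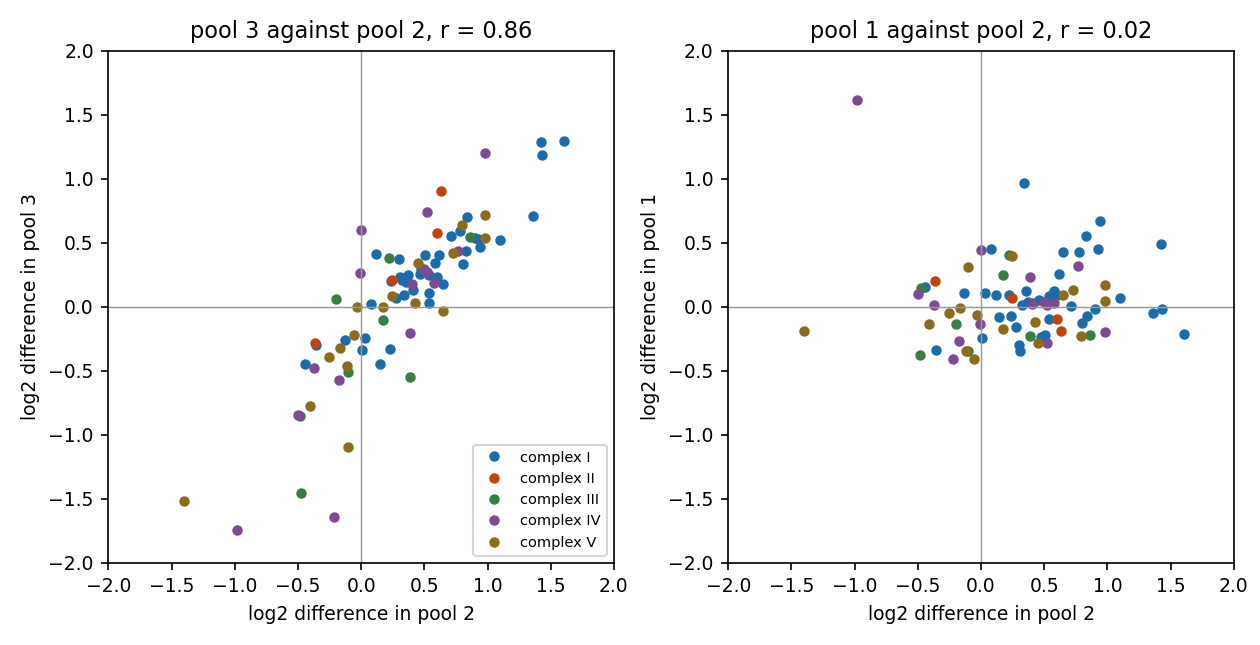
Each point is 1 of the 85 genes, placed by its log2 difference (GFP-positive minus GFP-negative) in pool 2 on the x axis and in pool 3 (left) or pool 1 (right) on the y axis, coloured by complex. The points follow the diagonal in the left panel, with an r of 0.86, and spread without slope in the right panel, with an r of 0.02.

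With the pool as a block, which uses the shared embryos of each pair of arrays, 5 members passed as higher and 1 as lower (5.88% and 1.18% of 85), against 7.76% and 5.99% of all genes. The 5 were all complex I subunits, Ndufb10, Ndufa6, Ndufb5, Ndufb7 and Ndufa8, and the 1 lower gene was Atp5md of the ATP synthase. Without pool 1, 34 members passed as higher and 7 as lower (40% and 8.24%), against 20.1% and 18.2% of all 11762 genes tested in that fit. All of the genes called with the block were among these. Leaving out the GFP-negative array of pool 1 alone gave 19 higher and 4 lower, against 11.3% and 10.9% of all genes, and each of these also passed without the whole of pool 1. Without pool 1 and with the block, 35 passed as higher and 13 as lower, against 23.2% and 21.7% of all genes. With 2 pools left, a lone pair of arrays can decide a call, and leaving out pool 2 or pool 3 gave 0 calls among the members in the fit without the block, where 0.0343% and 0.387% of all genes passed. With the block, Cox6a2 passed as lower without pool 2 (2.96% of all genes did) and Ndufb10 as higher without pool 3 (4.9%). At an adjusted p under 0.1 in the first fit, Ndufa6 passed as higher and Atp5md as lower, against 5.81% and 4.02% of all genes.

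The largest positive differences belonged to complex I, the NADH dehydrogenase, and above all to the accessory subunits of its membrane arm. Of its 41 genes, 34 had a positive difference, with a median of 0.23 and pool medians of 0.04, 0.51 and 0.25, and in the fit without pool 1 20 passed as higher (48.8%) and 1 as lower (2.44%), against 20.1% and 18.2% of all genes. Among 27 accessory subunits, 23 were positive with a median of 0.31, and 16 passed as higher (59.3%) and 0 as lower without pool 1, against the same 20.1% and 18.2% of all genes. The 10 Ndufb genes had a median of 0.51, with 9 positive, and 8 passed as higher without pool 1, where 20.1% of all genes did; with each gene as the mean over its probe sets their median was 0.21. For the 6 core subunits the median was 0.20, and 0.01 without pool 1, with Ndufs3 and Ndufs8 higher and Ndufv1 lower without pool 1, and for the 8 assembly factors it was 0.21, with Ndufaf5 and Ndufaf8 higher and 0 lower. These last shares, 33.3% higher and 16.7% lower for the core subunits and 25% higher for the assembly factors, rest on few genes and lay nearer to the 20.1% and 18.2% of all genes. Apart from the mean over probe sets, these values rest on the brightest probe set of each gene.

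Ndufb10, an accessory subunit of the membrane arm, had the largest difference of any member. Its intensity was 814, 539 and 534 in the GFP-positive cells of pools 1 to 3, and 569, 180 and 199 in the GFP-negative cells. The GFP-negative array of pool 1 thus lay above both GFP-positive arrays of the other pools, so the groups overlapped. The mean was 629 ± 160 (SD, n = 3) against 316 ± 219 (SD, n = 3), and the log2 difference was 1.07 ± 0.40 (SE, adjusted p = 0.163 in limma). It passed with the block (adjusted p = 0.0211) and without pool 1 (1.36 ± 0.14, adjusted p = 0.00019).

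Ndufb3 and Ndufb9, of the same arm, had large differences in pools 2 and 3 and values near or below 0 in pool 1. Ndufb3 intensity was 2394, 1599 and 1341 in GFP-positive and 2787, 505 and 526 in GFP-negative cells. Its log2 difference was 0.90 ± 0.59 (SE, adjusted p = 0.403), made of -0.22, 1.60 and 1.30 in the 3 pools. Ndufb9 intensity was 1973, 2159 and 1877 in GFP-positive and 1998, 778 and 807 in GFP-negative cells, and its log2 difference was 0.87 ± 0.34 (SE, adjusted p = 0.183). In both genes the GFP-negative array of pool 1 was at the level of the GFP-positive arrays while the other GFP-negative arrays lay far lower. Without pool 1 the log2 differences were 1.45 ± 0.13 for Ndufb3 and 1.31 ± 0.12 for Ndufb9. A second Ndufb9 probe set, dimmer than the first, had a log2 difference of 0.07.

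Ndufa6 is an accessory subunit of the LYR-motif family. Its intensity was 295, 356 and 289 in GFP-positive and 173, 171 and 200 in GFP-negative cells, with no overlap. The log2 difference was 0.69 ± 0.19 (SE, adjusted p = 0.083), with 0.67, 0.94 and 0.47 in the pools, and it passed with the block at an adjusted p of 0.038. Ndufa6 had 1 kept probe set, so taking each gene as the mean over its probe sets left its own values unchanged. It passed in that fit (adjusted p = 0.0495, with 3.42% of all genes higher), which is no separate measurement of the gene.

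Ndufb5, Ndufb7 and Ndufa8, 3 further accessory subunits, passed with the block at adjusted p-values of 0.0431, 0.0458 and 0.0479. Ndufb5 intensity was 2378, 2111 and 1513 against 1734, 1096 and 1041, Ndufb7 intensity was 997, 1463 and 1426 against 734, 840 and 934, and Ndufa8 intensity was 1368, 963 and 772 against 923, 527 and 563, each in the order GFP-positive then GFP-negative. Each gene was higher in GFP-positive cells within all 3 pools, and only Ndufb7 kept its groups apart. The log2 differences were 0.63 ± 0.26 for Ndufb5, 0.60 ± 0.22 for Ndufb7 and 0.61 ± 0.29 for Ndufa8 (SE). The second probe set of Ndufb7 had a log2 difference of -0.05, and that of Ndufb5 had 0.21.

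Ndufv3, an accessory subunit of the NADH-oxidising module, had intensities of 628, 1040 and 1184 in GFP-positive and 649, 386 and 713 in GFP-negative cells, and a log2 difference of 0.67 ± 0.31 (SE, adjusted p = 0.244). It passed as higher without pool 1, at 1.03 ± 0.24. Against the direction of most of the complex, Ndufs1, the largest iron-sulfur core subunit, was the 1 gene of the 41 lower in all 3 pools. Its intensity was 692, 860 and 857 in GFP-positive and 883, 1110 and 1062 in GFP-negative cells, and its log2 difference of -0.33 ± 0.20 did not pass (adjusted p = 0.35). Ndufv1, the core subunit that binds NADH and flavin, was the 1 complex I gene that passed as lower without pool 1, at -0.45 ± 0.11 (adjusted p = 0.011). Over all 3 pools it had 1459, 2237 and 2286 in GFP-positive and 1309, 3050 and 3136 in GFP-negative cells. Its other 2 kept probe sets were at -0.05 (adjusted p = 0.851) and 0.10 (adjusted p = 0.687) without pool 1.

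**Figure D3:**
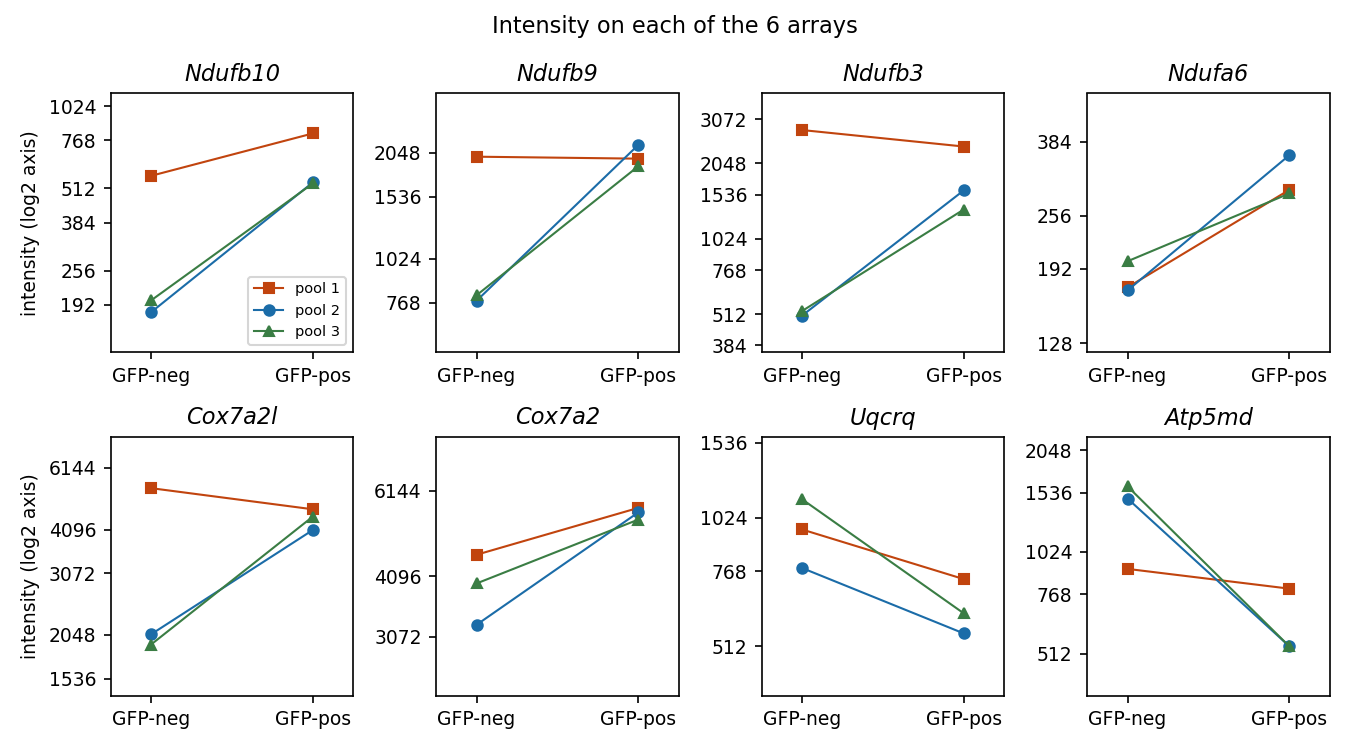
Intensity (log2 axis) of 8 members on each of the 6 arrays, with a line joining the GFP-negative and GFP-positive arrays of the same pool. Ndufb3, Ndufb9 and Cox7a2l have a flat or downward line in pool 1 and steep upward lines in pools 2 and 3, whereas Ndufa6 and Cox7a2 lie higher and Uqcrq lower in the GFP-positive cells of all 3 pools.

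Promoters of 4 of the genes that passed with the block are shown: the 2 that held a searched string, and Ndufb10 and Atp5md, which had the highest and the lowest difference of all members. Nuclear respiratory factor 1, ETS-family factors and YY1 are textbook regulators of respiratory genes, so 3 strings were searched on both strands in the 250 bases before each start in RefSeq (GRCm38.p6): GCGCA and GCGC with any 1 base between them for NRF1, CCGGAAG for ETS and AAGATGGCG for YY1, none of which contains another. RefSeq promoters matched 74 of the 90 member genes. The NRF1 string was in 12 of them (16.2%) against 4.23% of 27025 genes, the ETS string in 14 (18.9%) against 7.83%, and the YY1 string in 1 (1.35%) against 0.710%. The log2 difference between the cell groups had a median of 0.26 over 11 kept members with the NRF1 string and 0.19 over 59 without it, and 0.20 over 14 with the ETS string and 0.21 over 56 without it. Ndufa8 (chr2:36049339-36049588, minus strand) held the NRF1 string on its reverse strand and Ndufb7 (chr8:83566508-83566757, plus strand) held the ETS string, each in capitals, whereas Ndufb10 (chr17:24724424-24724673, minus strand) and Atp5md (chr19:47090648-47090897, minus strand) held none of the 3. The other 2 genes that passed with the block, Ndufa6 and Ndufb5, also held none, so 2 of the 5 higher genes held a string. Any of the 3 strings was in 23 of the 74 members (31.1%), against 11.8% of the 27025 genes. Each sequence is the 250 bases just upstream of the annotated start, 5′ to 3′ along the gene, and a match is a description of the letters only.
Ndufa8: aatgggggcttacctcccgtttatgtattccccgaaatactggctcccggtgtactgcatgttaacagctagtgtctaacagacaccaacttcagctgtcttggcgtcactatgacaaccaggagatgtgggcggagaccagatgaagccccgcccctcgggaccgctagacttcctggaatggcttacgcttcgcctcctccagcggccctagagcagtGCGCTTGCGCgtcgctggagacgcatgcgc
Ndufb7: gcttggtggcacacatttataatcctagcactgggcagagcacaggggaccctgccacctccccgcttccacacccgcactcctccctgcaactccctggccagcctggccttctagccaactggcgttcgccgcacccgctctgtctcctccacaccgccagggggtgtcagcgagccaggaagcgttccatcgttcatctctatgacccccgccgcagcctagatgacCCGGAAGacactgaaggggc
Ndufb10: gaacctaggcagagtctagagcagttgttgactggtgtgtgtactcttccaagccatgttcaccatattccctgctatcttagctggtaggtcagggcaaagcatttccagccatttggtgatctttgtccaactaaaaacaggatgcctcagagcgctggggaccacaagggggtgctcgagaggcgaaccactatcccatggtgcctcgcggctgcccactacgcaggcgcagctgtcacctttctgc
Atp5md: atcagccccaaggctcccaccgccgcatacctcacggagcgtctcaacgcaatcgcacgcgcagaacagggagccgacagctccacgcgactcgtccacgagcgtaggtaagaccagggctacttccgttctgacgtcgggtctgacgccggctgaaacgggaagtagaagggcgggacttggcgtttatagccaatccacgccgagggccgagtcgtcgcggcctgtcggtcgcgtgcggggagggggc

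Complex II, the succinate dehydrogenase that also serves the citric acid cycle, showed no member past the test over the 3 pools or with the block. Its 4 subunits differed in sign. Sdha, the flavoprotein that oxidises succinate, had intensities of 1317, 1846 and 2040 in GFP-positive and 1141, 2383 and 2494 in GFP-negative cells, and a log2 difference of -0.15 ± 0.32 (SE, adjusted p = 0.814). Sdhb, the iron-sulfur subunit, had 943, 1544 and 1414 against 1012, 1005 and 939, a log2 difference of 0.36 ± 0.23 (adjusted p = 0.372). The membrane anchor Sdhc had 165, 651 and 779 against 192, 410 and 400, a log2 difference of 0.45 ± 0.53 (adjusted p = 0.644), and the other anchor, Sdhd, had 696, 1131 and 1237 against 664, 950 and 1067, a log2 difference of 0.17 ± 0.28 (adjusted p = 0.747). For Sdhc the 2 arrays of pool 1 were the lowest of all 6, whichever the cell group. Without pool 1, Sdhb and Sdhc passed as higher, at 0.59 ± 0.12 and 0.77 ± 0.14. These were 50% of the 4 genes, against 20.1% of all genes. In the same fit Sdha was at -0.32 ± 0.11 (adjusted p = 0.0515), and it passed as lower when the block was added (adjusted p = 0.0422). That was 25% of the 4 genes, near the 21.7% of all genes, and both shares rest on few genes. The sign of Sdha was positive when 1 of 3 arrays, the GFP-positive array of pool 1 or the GFP-negative array of pool 2 or pool 3, was left out.

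Complex III, the cytochrome c reductase, had the lowest median of the complexes, -0.11, with 3 of 8 genes positive and pool medians of -0.18, 0.03 and -0.31. The symbol rule left out cytochrome c1, another subunit of this complex, which is in a list given below. Uqcrq, a small subunit, was lower in all 3 pools: its intensity was 735, 548 and 611 in GFP-positive and 962, 781 and 1132 in GFP-negative cells, without overlap. The log2 difference was -0.57 ± 0.22 (SE, adjusted p = 0.169), and 0.0611 was the adjusted p with the block. All 4 of its kept probe sets were negative. Uqcr10, another small subunit, had 100, 83.5 and 58.6 against 87.1, 128 and 216, a log2 difference of -0.59 ± 0.29 (adjusted p = 0.268) with 0.15, -0.47 and -1.45 in the pools. Uqcrc2, a core protein of the matrix side, went the other way in pools 2 and 3, with 3150, 3432 and 3044 against 3673, 1878 and 2073 and a log2 difference of 0.40 ± 0.26 (adjusted p = 0.394). Without pool 1, Uqcrc2 passed as higher at 0.70 ± 0.12, and Uqcrq and Uqcr10 as lower at -0.67 ± 0.18 and -0.96 ± 0.23. These were 1 of 8 higher (12.5%) and 2 of 8 lower (25%), near the 20.1% and 18.2% of all genes in that fit.

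Complex IV, the cytochrome c oxidase, is built partly from subunits with separate genes for different tissues. Its 15 kept genes had a median of 0.17, with 10 positive, and pool medians of 0.02, 0.39 and 0.19. Cox7a2, the widely expressed form of its subunit, had 5662, 5542 and 5356 in GFP-positive and 4533, 3250 and 3955 in GFP-negative cells, without overlap. Its log2 difference was 0.51 ± 0.17 (SE, adjusted p = 0.129), it passed after quantile normalization (0.60 ± 0.12, adjusted p = 0.0337, with 3.48% of all genes higher in that fit), and its second probe set had 0.41. Cox7a2l, which joins complexes III and IV into supercomplexes, had 4679, 4083 and 4460 in GFP-positive and 5376, 2056 and 1923 in GFP-negative cells, a log2 difference of 0.66 ± 0.36 (adjusted p = 0.312). Its 3 kept probe sets were all positive, at 0.66, 0.84 and 0.40, and without pool 1 it passed at 1.09 ± 0.11 (adjusted p = 0.000202).

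Ndufa4, first named for complex I and now counted with complex IV, had 1621, 1706 and 1600 against 1604, 1179 and 947, a log2 difference of 0.42 ± 0.22 (SE, adjusted p = 0.294). Cox4i1 had 5453, 4744 and 4327 against 5309, 3350 and 3523, a log2 difference of 0.28 ± 0.21 (adjusted p = 0.465). Cox6a1 had a log2 difference of 0.26 ± 0.19 and Cox6b1 of 0.17 ± 0.19, the latter positive in pools 2 and 3 and -0.28 in pool 1. In these 4 genes the values of pool 1 were close between the cell groups or opposite to the other pools, and all 4 passed as higher without pool 1. With Cox7a2 and Cox7a2l, 6 of the 15 passed as higher in that fit (40%) and 2, Cox8a and Cox8c, as lower (13.3%), against 20.1% and 18.2% of all genes. Cox5b, a bright subunit gene, was lower in all 3 pools on its brightest probe set, at -0.27, -0.18 and -0.57. It passed as lower without pool 1 and with the block (adjusted p = 0.0151 in limma), where 21.7% of all genes did. Its other probe sets had log2 differences of -0.35, -0.55 and -0.61, and 0.02 on a dim probe set. The dimmer probe sets of Cox6a1 and Cox6b1 had log2 differences of -0.12 and 0.01 over the 3 pools.

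The isoforms named for other tissues were dim. The heart and muscle forms Cox7a1 and Cox8b, the testis form Cox7b2, the Ndufa4 relative Ndufa4l2 and the complex I gene Ndufb4, on the 1 probe set that names it alone, did not pass the intensity filter, and their highest intensity was 31.7, for Ndufa4l2 in the GFP-positive cells of pool 3. Cox4i2, the form linked to low oxygen, was at 17.1, 15.0 and 12.9 in GFP-positive and 9.78, 3.96 and 19.7 in GFP-negative cells, and Cox6b2, the testis form, at 15.2, 17.8 and 24.5 against 2.72, 17.9 and 5.36. Cox6a2, the heart and muscle form, had 26.4, 20.9 and 19.0 in GFP-positive and 45.5, 29.6 and 127 in GFP-negative cells, so its log2 difference of -0.76 ± 0.32 (SE, adjusted p = 0.211) drew mostly on pool 3. Cox8c, another testis form, had 61.7, 61.6 and 58.5 against 55.4, 100 and 130 and a log2 difference of -0.41 ± 0.24 (adjusted p = 0.345), and it passed as lower without pool 1, at -0.67 ± 0.17 (adjusted p = 0.0149). Cox8a, the widely expressed form, had 121, 133 and 142 in GFP-positive and 17.9, 294 and 549 in GFP-negative cells. Its difference was 1.61 in pool 1 and -0.98 and -1.74 in pools 2 and 3, so that the SE was 0.76 about a mean of -0.37. Its second probe set was negative in all 3 pools, at -0.21, -0.29 and -1.10. That probe set was the brighter on the 4 arrays without pool 1 and stood for the gene there, where Cox8a passed as lower at -0.70 ± 0.22 (adjusted p = 0.0358).

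**Figure D4:**
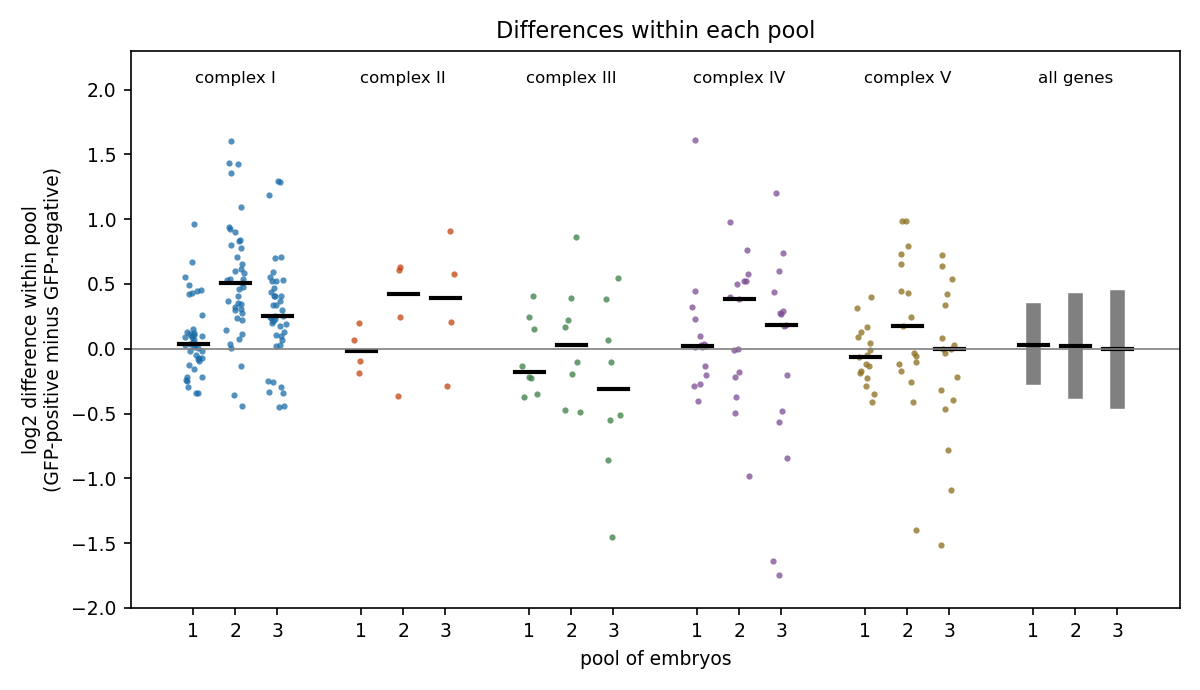
Log2 difference (GFP-positive minus GFP-negative, y axis) of every kept member within each of the 3 pools (x axis), by complex, with black bars for medians; for all genes, grey bars span the middle 50%. Pool 1 medians lie near 0 for complexes I, II and IV, and the pool 2 medians of complexes I and II, 0.51 and 0.42, are the highest.

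Complex V, the ATP synthase, was split by sign. The median over its 17 genes was 0.00, with 9 positive and 8 negative, and pool medians of -0.07, 0.17 and -0.00. Atp5md, a small membrane subunit of the dimer interface, had the lowest difference of all members and the smallest adjusted p. Its intensity was 798, 539 and 538 in GFP-positive and 912, 1474 and 1602 in GFP-negative cells, and the groups did not overlap. The mean was 625 ± 150 (SD, n = 3) against 1330 ± 367 (SD, n = 3), and the log2 difference was -1.04 ± 0.27 (SE, adjusted p = 0.0717). The difference was small in pool 1, -0.19, and -1.40 and -1.52 in pools 2 and 3. It passed as lower with the block (adjusted p = 0.0417) and without pool 1 (-1.46 ± 0.12, adjusted p = 8.33e-05). Atp5mpl, another small membrane subunit, had 605, 799 and 760 against 666, 1070 and 1326, a log2 difference of -0.44 ± 0.27 (adjusted p = 0.371), and was negative in all 3 pools. Each of these genes had 1 kept probe set.

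Other parts of the synthase had positive values. Atp5j, coupling factor 6 of the peripheral stalk, had 3018, 3526 and 3139 against 2927, 1767 and 1892, a log2 difference of 0.58 ± 0.22 (SE, adjusted p = 0.169). Atp5k, the membrane subunit e, had 1387, 1499 and 1308 against 1230, 743 and 890, a log2 difference of 0.56 ± 0.22 (adjusted p = 0.184). On these probe sets all GFP-positive arrays lay above all GFP-negative arrays, by little in pool 1. Atp5j had 1 kept probe set, whereas the other 2 of Atp5k had log2 differences of -0.24 and 0.37, with -1.16 and -0.52 in pool 3. Atp5j, Atp5k, Atp5h of the stalk and the F1 subunits Atp5c1 and Atp5d were the 5 complex V genes that passed as higher without pool 1, and Atp5md and Atp5mpl the 2 that passed as lower. These were 29.4% and 11.8% of the 17, against 20.1% and 18.2% of all genes. The genes Atp5g1, Atp5g2 and Atp5g3 encode the same mature c subunit of the rotor ring, and none passed over the 3 pools or without pool 1. Their log2 differences were 0.00 ± 0.24, 0.24 ± 0.34 and -0.31 ± 0.17 (SE). Atp5g3 was at 7849, 6561 and 6644 in GFP-positive and 10001, 7109 and 9172 in GFP-negative cells, lower within all 3 pools.

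Other probe sets of the same genes bore less of a shift. Of the 85 genes, 50 had more than 1 kept probe set, and in 24 of these the sign was not shared by every kept probe set. The 80 other probe sets were 40 positive and 40 negative, with a median log2 difference of -0.01, and all 165 together were 99 positive and 66 negative, with a median of 0.12 against -0.03 over all kept probe sets. In the fit over probe sets, 0 of 165 members passed, against 1.81% of all, and with the block 2 passed as higher (Ndufb10 and Ndufa6) and 2 as lower (Atp5md and a dimmer probe set of Ndufa10, at -0.67), against 9.86% of all in either direction. That Ndufa10 probe set was dim, at 4.31, 25.0 and 23.8 in GFP-positive and 31.1, 51.0 and 56.3 in GFP-negative cells. The brightest Ndufa10 probe set had a log2 difference of 0.12. Over the 61 genes whose kept probe sets all had the same sign, the median was 0.18. These 61 include the 35 genes with 1 kept probe set, where the sign could not disagree.

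**Figure D5:**
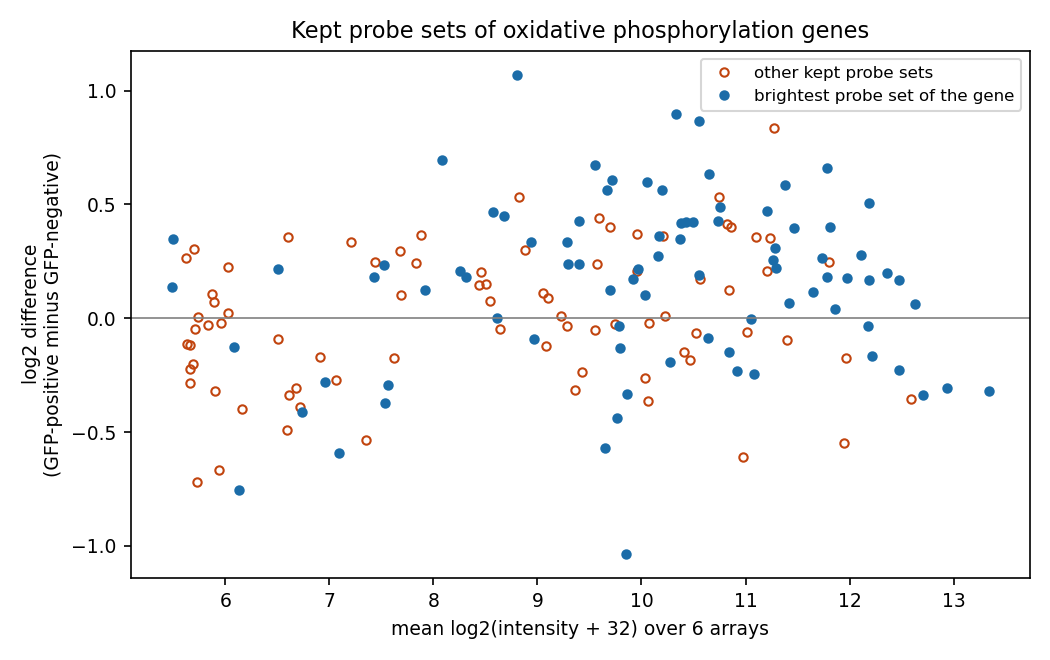
Log2 difference (GFP-positive minus GFP-negative, y axis) of the 165 kept member probe sets against their mean log2(intensity + 32) over the 6 arrays (x axis), filled for the brightest probe set of each gene and open for the others. The open points have a median of -0.01, with 40 on each side of 0.

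Neighbouring pathways, taken as lists, gave these counts in the same fits. The 3 genes for cytochrome c and cytochrome c1 were all positive, with a median of 0.33. Of 7 genes for ADP/ATP and phosphate carriers and porins, 4 were positive, with a median of 0.01. The 2 kept genes for uncoupling proteins and the ATP synthase inhibitor were negative, with a median of -0.20. In each of these lists 0 passed over the 3 pools. Of 32 kept assembly factors outside the Nduf genes, 22 were positive with a median of 0.09, and 0 passed over the 3 pools. With the block 3 passed as higher, Higd2a, Cox11 and Cox20, all used in building complex IV, with log2 differences of 0.86, 0.88 and 0.65 (9.38% of the 32, against 7.76% of all genes). Without pool 1, 9 passed as higher (28.1%) and 0 as lower, against 20.1% and 18.2% of all genes. Of 20 kept regulators of mitochondrial biogenesis, 0 passed over the 3 pools. With the block 1, Nrf1, passed as lower (5% of the 20, near the 5.99% of all genes). The Nrf1 probe set was at 233, 344 and 361 in GFP-positive and 280, 1583 and 1516 in GFP-negative cells, a log2 difference of -1.44 ± 0.58 (SE, adjusted p = 0.191). The other 3 kept Nrf1 probe sets had log2 differences of -0.07, 0.23 and -0.16. Tfam, which packages mitochondrial DNA and serves its transcription, had 1137, 1167 and 1093 against 819, 846 and 671, a log2 difference of 0.53 ± 0.19 (adjusted p = 0.143). The other kept Tfam probe set had a log2 difference of 0.08.

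The 76 mitochondrial ribosomal protein genes, whose products translate the subunits encoded by the mitochondrial genome, had 53 positive differences, a median of 0.22 and pool medians of -0.04, 0.38 and 0.20, and without pool 1 31 passed as higher (40.8%) and 8 as lower (10.5%), against 20.1% and 18.2% of all genes. Mrps33, a small-subunit protein, was the 1 of them that passed over the 3 pools, as lower, at -0.99 ± 0.22 (SE, adjusted p = 0.044). That is 1.32% of the 76, near the 1.71% of all genes. The 43 kept cytosolic ribosomal protein genes had 13 positive and a median of -0.10, which was 0.10 after quantile normalization, and the 19 glycolysis genes had 6 positive and a median of -0.23, and in each of these lists 0 passed over the 3 pools. In glycolysis, Pfkp, a phosphofructokinase, had -0.92 ± 0.23 (SE, adjusted p = 0.060) and Hk2, a hexokinase, had 0.76 ± 0.21 (adjusted p = 0.082), and both passed with the block. Of the 19, 2 passed as higher and 3 as lower with the block (10.5% and 15.8%), against 7.76% and 5.99% of all genes. Without pool 1, 4 passed as higher and 6 as lower (21.1% and 31.6%), against 20.1% and 18.2% of all genes. Of 17 genes of pyruvate dehydrogenase and the citric acid cycle, 10 were positive with a median of 0.06, and 0 passed over the 3 pools or with the block. Whether any of these lists differed from the respiratory genes was not tested.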

How the data were processed

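RNA was extracted with a linear polyacrylamide carrier, amplified with an Affymetrix labelling kit of 2 cycles and given a biotin label, per the labels' protocols. The deposited values were 1-colour intensities on a linear scale from GCOS 1.4, per the submitters' processing notes. Their mean with 2% trimmed at each end was 150 on every array. No detection calls entered the fits, so a dim value can be background, and precision is limited by the number of arrays (3 per group). Unused per-sample columns numbered 0. The platform annotation named 1 gene for 34945 probe sets, several for 932 and none for 9224, and 10 probe sets that name a member together with another gene were left out.

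Intensities were taken to log2(value + 32), which understates changes of dim genes. The filter asked for 3 of 6 arrays at or over the array's own 40th percentile, and the brightest probe set that passed stood for its gene. Fits that left out arrays still asked for 3 of the arrays that remained. There, a gene at that level in 1 cell group alone could be dropped, so the genes tested differed. The 12628 genes were then fitted in limma 3.58.1 (R 4.3.3) by lmFit and a trended eBayes on cell group alone, with Benjamini-Hochberg adjustment over all genes. The script was tested on simulated data. Each pool of embryos gave a pair of arrays, per the labels, so the pool as a block was a second fit. The deviations of paired arrays from their group means correlated at 0.54, 0.29 and 0.44. Scaling, offset, filter, probe set rule and left-out arrays were the other alternatives.

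Members, lists and rules were chosen with earlier results of these data known. Named were members that passed, the 3 largest differences in each complex, the 5 highest and 5 lowest of all, Sdha to Sdhd, the tissue isoforms, and the genes behind any count of at most 5. For other lists, genes were taken from the 3 with the smallest adjusted p. Promoters came from RefSeq (GRCm38.p6).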

Additional observations from a re-analysis of the deposited data

How the results depend on the processing

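The median log2 difference over the members stayed positive under every alternative tried, from 0.09 without pool 2 to 0.28 without pool 1. Quantile normalization gave 1 member higher (Cox7a2) and the mean over probe sets 1 (Ndufa6); an adjusted p under 0.1 gave 1 higher and 1 lower. The pool as a replicate block gave 5 higher and 1 lower, 2 and 2 among member probe sets, and 980 and 757 among all genes. All genes gave 372 higher and 216 lower, 233 and 101 with no filter, and 734 and 508 at an adjusted p under 0.1. When arrays or pools were left out, with or without the block, the members ran from 0 to 35 higher and from 0 to 13 lower, member probe sets from 0 to 50 and from 0 to 22, and all genes from 4 to 2727 and from 0 to 2553. The upper ends came without pool 1 with the block, and the lower ends for all genes without pool 2. With the block, leaving out pool 2 gave 1 lower member (Cox6a2) and leaving out pool 3 gave 1 higher (Ndufb10). The cause was not tested. Of 623 single-gene alternatives for 30 of the named members, 536 kept sign and side of the threshold, 68 newly passed and 19 changed sign. Not every member named above was in this tally. Atp5g1 was -0.000535 with an offset of 16, -0.0346 after quantile normalization and -0.0577 as the mean over probe sets. With arrays or pools left out, Atp5g1 ran from -0.11 to 0.20, Atp5g2 from -0.00165 to 0.55, Sdha from -0.51 to 0.0462, Sdhd from -0.0202 to 0.42, Cox6b1 from -0.00574 to 0.40 and Cox8a from -1.41 to 0.36. Depth is unknown for arrays; genes under about 100 in intensity are the least certain.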
